A study of Mus musculus with 12 samples.

Results

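Lipogenesis and triglyceride synthesis genes were examined in C57BL/6 mice, in the quadriceps femoris, a large thigh muscle that extends the knee. The set holds 10 genes, chosen by name for their function and by no threshold on their values: Acly, Acaca, Fasn, Elovl6, Scd1, Me1, Dgat1, Dgat2, Srebf1 and Thrsp. They are 10 of the 49315 genes counted, and all 10 were among the 15304 genes that passed the filter on low counts. RNA was sequenced in 12 libraries, 3 in each of 4 groups. Young sedentary mice were 18 weeks old, and young exercised mice of the same age ran on a treadmill. Old sedentary and old exercised mice were 28 months old. The running programme lasted 8 weeks, with 3 sessions a week of 40 minutes at a speed raised from 8 to 12 m/min, and sedentary mice had no set running. No genotype other than the shared inbred strain is labelled, sex is not labelled, and the libraries of a group are listed as separate samples without a statement that each came from its own animal. P-values therefore measure the spread between these samples, which may be partly technical.

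De novo lipogenesis turns citrate exported from mitochondria into fatty acids: ATP-citrate lyase (Acly) makes cytosolic acetyl-CoA, acetyl-CoA carboxylase (Acaca) makes malonyl-CoA, and fatty acid synthase (Fasn) builds palmitate with reducing power that malic enzyme (Me1) helps to supply. Elovl6 lengthens palmitate to stearate, Scd1 introduces a double bond, and Dgat1 and Dgat2 attach the last acyl chain of a triglyceride. Srebf1 encodes the transcription factor SREBP-1, which together with the lipogenic regulator Thrsp drives this programme, and fat cells and liver run it at far higher rates than muscle fibres. In a whole muscle, the RNA of fat cells between the fibres is read together with that of the fibres, so fewer cells of a type and less RNA per cell cannot be told apart.

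Coordinates are those of the mouse build GRCm38, as the count files give them. Fasn spans 120805846 to 120824547 on the minus strand of chromosome 11, which also carries Acly (100476353 to 100528000, minus), Acaca (84129672 to 84401651, plus) and Srebf1 (60199089 to 60222581, minus). Elovl6 occupies 129532355 to 129638495 on the plus strand of chromosome 3. Dgat2 (99153658 to 99182719) and Thrsp (97412938 to 97417730) both lie on the minus strand of chromosome 7. The remaining members are on the minus strand too, Dgat1 on chromosome 15 (76502015 to 76511951), Scd1 on chromosome 19 (44394451 to 44407709) and Me1 on chromosome 9 (86581371 to 86695953). Srebf1 overlaps Rai1 on the opposite strand, whose counts came to 68.0% of those of Srebf1. Without a stated strand setting, reads of these 2 genes cannot be told apart, so the Srebf1 values are uncertain. Scd1 has the close relatives Scd2, Scd3 and Scd4, and how reads with several alignments were treated is not given in the sources used here. For the other members, an overlapping gene had at most 0.27% of the member's counts.

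Promoter sequence was available from RefSeq (GRCm38.p6) for 7 of the 10 genes, and 3 stretches of 120 bases are shown because Elovl6 and Acly passed the test for age described below and Fasn had the largest fold difference with exercise in young muscle. Scd1, Dgat1 and Dgat2 were not matched. The Fasn stretch (chr11:120824548-120824667, minus strand) and the Acly stretch (chr11:100528001-100528120, minus strand) end at the base before the transcription start. The Elovl6 stretch (chr3:129532235-129532354, plus strand) runs from 151 to 32 bases before the RefSeq start, where the gene of the count files begins. Each is written 5′ to 3′ in the direction of transcription. Capitals mark CCAAT boxes in Fasn and GC boxes in Acly, on either strand, and no letters are in capitals in Elovl6.
Fasn: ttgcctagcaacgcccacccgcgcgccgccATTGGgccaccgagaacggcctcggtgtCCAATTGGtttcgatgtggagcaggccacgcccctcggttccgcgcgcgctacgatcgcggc
Acly: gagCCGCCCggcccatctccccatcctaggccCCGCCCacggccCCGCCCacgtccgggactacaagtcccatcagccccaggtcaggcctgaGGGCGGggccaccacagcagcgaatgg
Elovl6: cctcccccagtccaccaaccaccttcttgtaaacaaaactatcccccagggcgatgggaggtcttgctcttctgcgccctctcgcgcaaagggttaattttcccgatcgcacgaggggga

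Motifs were searched by their letters on both strands in the 250 bases before each RefSeq start, with 10 such windows for the 7 genes. A RefSeq start need not be that of the gene as counted. The Acaca window (chr11:84195188-84195437, plus strand) lies inside the gene of the count files, as do 2 of the 3 Srebf1 windows and 1 of the 2 Me1 windows, and the windows of Elovl6 and Thrsp and the other Me1 window reach into it. The CCAAT box (CCAAT), which binds NF-Y, was present in 5 of the 10 windows (Fasn, 2 of Srebf1, 1 of Me1 and Thrsp), and 33.8% of all 32851 windows held it. Fasn held it at 3 places, where the second and the third share bases. The GC box (GGGCGG), which binds Sp1, was present in 4 of the 10 windows (2 of Srebf1, 1 of Me1 and Acly) against 32.7% of all windows. Acly held 4 GC boxes. The sterol regulatory element in the form TCACNCCAC was in 0 of the 10 windows (1.05% of all windows), and the E-box CACGTG was in 0 of the 10 (6.02% of all windows). These letters are a description of the windows and were not tied to any measured difference.

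Levels are given as CPM, a gene's counts per M counts of its library after TMM scaling (trimmed mean of M values). Divided by exon length, the mean level over the 12 libraries was highest for Me1, at 75.9 CPM per kb, followed by Scd1 at 40.1. Thrsp had 16.0, Dgat2 14.1 and Fasn 13.7 CPM per kb. Srebf1 had 7.65, Acly 6.89, Dgat1 4.70, Acaca 2.27 and Elovl6 1.01 CPM per kb. These means pool the 4 groups, and the order differed within them. Fasn averaged 29.6 CPM per kb in young sedentary muscle, but 3.14 in young exercised and 3.79 in old sedentary muscle, where Thrsp had 7.6 and 8.07 and Dgat2 5.89 and 12.9 CPM per kb. The levels of most members spread over several-fold from library to library. The highest library exceeded the lowest by 47.4-fold for Elovl6, 27.8-fold for Fasn, 17.3-fold for Scd1 and 11.5-fold for Acly. That span was 8.82-fold for Acaca, 8.49-fold for Thrsp, 6.25-fold for Dgat2, 3.09-fold for Dgat1, 2.99-fold for Srebf1 and 1.58-fold for Me1. Young sedentary library 1 was the highest of the 12 for 8 of the 10 genes, all but Srebf1 and Me1. Old exercised library 6 was the second highest for 7 of them, all of the 8 except Elovl6. The smallest number of counts behind any of these values was 19, for Elovl6 in old sedentary library 4.

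**Figure D1:**
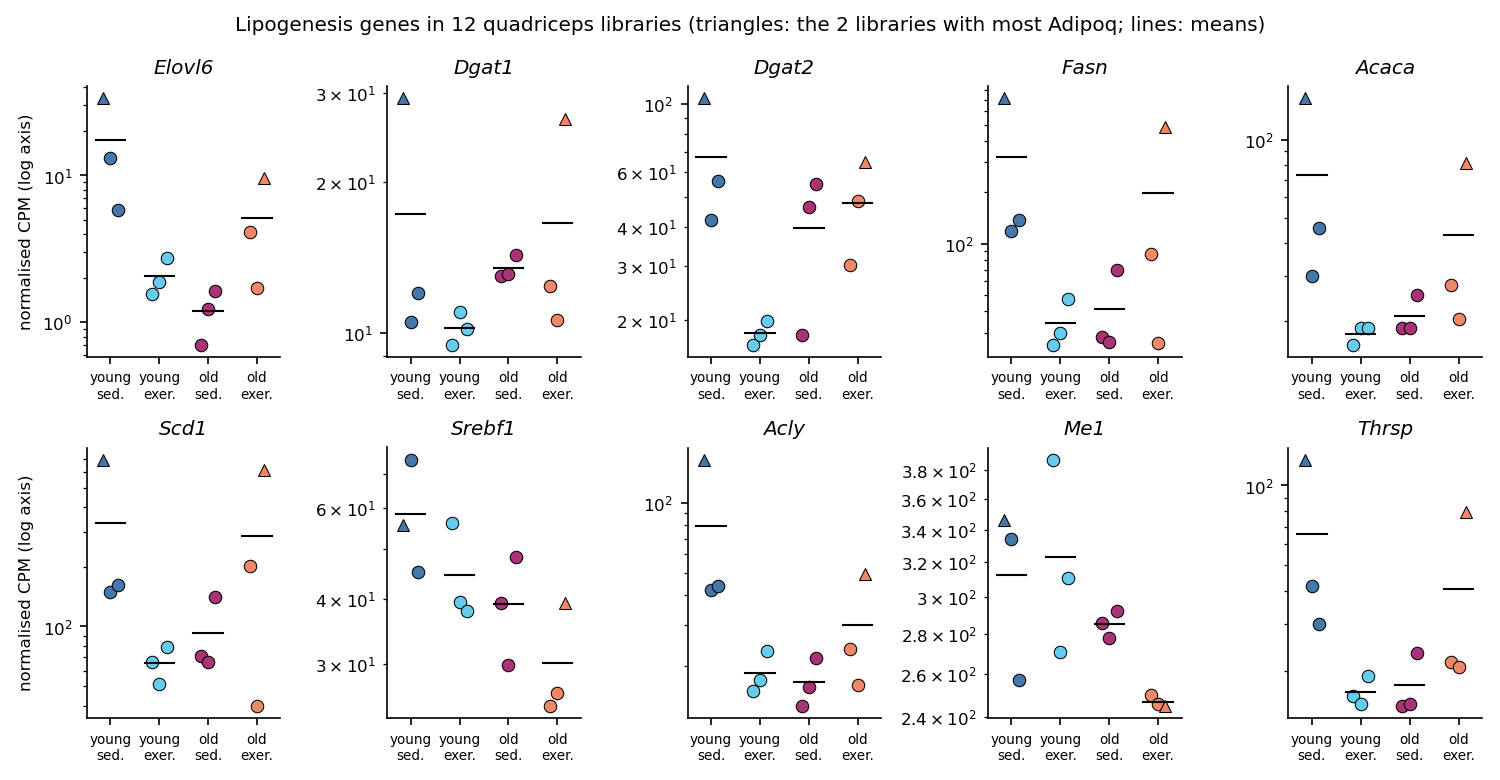
Normalised CPM of each of the 10 genes on a log axis, 1 symbol per library, by group (young or old, sedentary or exercised, 3 libraries each), with the group mean as a line. Triangles mark young sedentary library 1 and old exercised library 6, which have the most Adipoq; young sedentary library 1 is the highest library for 8 genes.

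The libraries did not carry the same amount of fat-cell RNA. Total counts were 23.3 to 27.6 M per library, and no 2 libraries of a group agreed within sampling noise (chi-square per degree of freedom 10.8 to 75). Adipoq, the fat-cell hormone adiponectin, stood at 147 CPM of the plain library total in young sedentary library 1 and at 107 in old exercised library 6, and at 3.69 to 25.9 in the other 10. The lipid-droplet proteins Plin1 and Cidec and the fat-cell protease Cfd followed, with Plin1 at 107 and 66.1 CPM in those libraries and at 18.9 or below elsewhere. All 12 measured genes of the 13 on the adipocyte list were detected in every library (Trarp1 was not matched). Their summed level was 414 to 2550 CPM in young sedentary, 189 to 412 in young exercised, 176 to 520 in old sedentary and 177 to 1970 in old exercised muscle. Other signals also differed between libraries. Skin and keratinocyte markers summed to 637 CPM in young sedentary library 2 and to 11 to 23.4 elsewhere. Hepatocyte markers summed to 182 CPM in young sedentary library 1, also the library with most Adipoq, and to 12.6 to 45.2 elsewhere. Slow-fibre markers summed to 85 to 2190 CPM in young sedentary, 71.8 to 139 in young exercised, 83.2 to 1340 in old sedentary and 276 to 727 in old exercised libraries. Fast-fibre markers summed to 153000 to 199000 CPM per library, the markers of the fibres that make up most of this muscle. Brown adipocyte markers summed to 32.2 to 60.5 CPM, with Ucp1 at 0 in all young exercised and old sedentary libraries, and sebocyte markers summed to 5.01 to 14.2. Myelin and Schwann cell markers lay at 40.8 to 115 CPM, endothelial markers at 152 to 334 and macrophage markers at 96.6 to 190. By Xist, from the inactive X chromosome, and the Y-linked Ddx3y, 5 libraries were female: young sedentary 1 and 3, young exercised 8 and 10, and old exercised 4. No old sedentary library was female, so in sedentary mice sex and age were unevenly mixed, and a comparison within females could not be made. Except where values are given below, the part of these signals in the results was not tested.

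Within groups, Dgat1, Fasn, Acaca and Thrsp rose with Adipoq, from library to library. This slope was fitted to all 12 libraries beside 1 coefficient for each group, so it reads differences among libraries of the same age and treatment. Per doubling of Adipoq, the log2 level of Dgat1 rose by 0.29 ± 0.0464 (SE; edgeR adjusted p = 0.00888), that of Fasn by 0.74 ± 0.107 (0.0147), that of Acaca by 0.43 ± 0.0679 (0.0163) and that of Thrsp by 0.43 ± 0.0686 (0.0173). The slopes of Acly (0.37), Elovl6 (0.46) and Scd1 (0.60) had edgeR adjusted p-values of 0.0574, 0.0884 and 0.0953. Dgat2 had a slope of 0.17 ± 0.101 (edgeR adjusted p = 0.718), Srebf1 of 0.09 ± 0.0608 (0.75) and Me1 of 0.01 ± 0.0344 (0.983). For scale, the fat-cell genes Plin1, Cidec and Cfd had slopes of 0.95, 1.0 and 1.0. The slope was positive in 10 of 10 genes, with a median of 0.40 against -0.005 over all genes tested.

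In edgeR 4 of the 10 genes passed for this slope, against 0.974% of all genes. At an unadjusted p under 0.05 there were 7 (8.58% of all genes), and DESeq2 and limma voom each called 7 (1.95% and 1.23% of all genes). The count depends on single libraries: it was 0 without young sedentary library 1, without old exercised library 5 or without old exercised library 6. Without young sedentary library 2, young sedentary library 3 or old exercised library 4 it was 2. Over all genes, 149 were called higher in the main fit. That number was 89 without young sedentary library 1, 116 without old exercised library 5 and 53 without old exercised library 6. In the fits with a count of 2 it was 171, 141 and 124. Leaving out 1 library at a time, slopes were 0.66 to 0.8 for Fasn, 0.34 to 0.47 for Acaca, 0.36 to 0.47 for Thrsp and 0.22 to 0.33 for Dgat1. Without both libraries of high Adipoq the count was 0, and the slopes were 0.51 for Fasn, 0.42 for Scd1, 0.25 for Elovl6, 0.15 for Acaca, 0.14 for Thrsp and 0.07 for Dgat1. Over all genes, 8 were called higher in that fit.

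**Figure D2:**
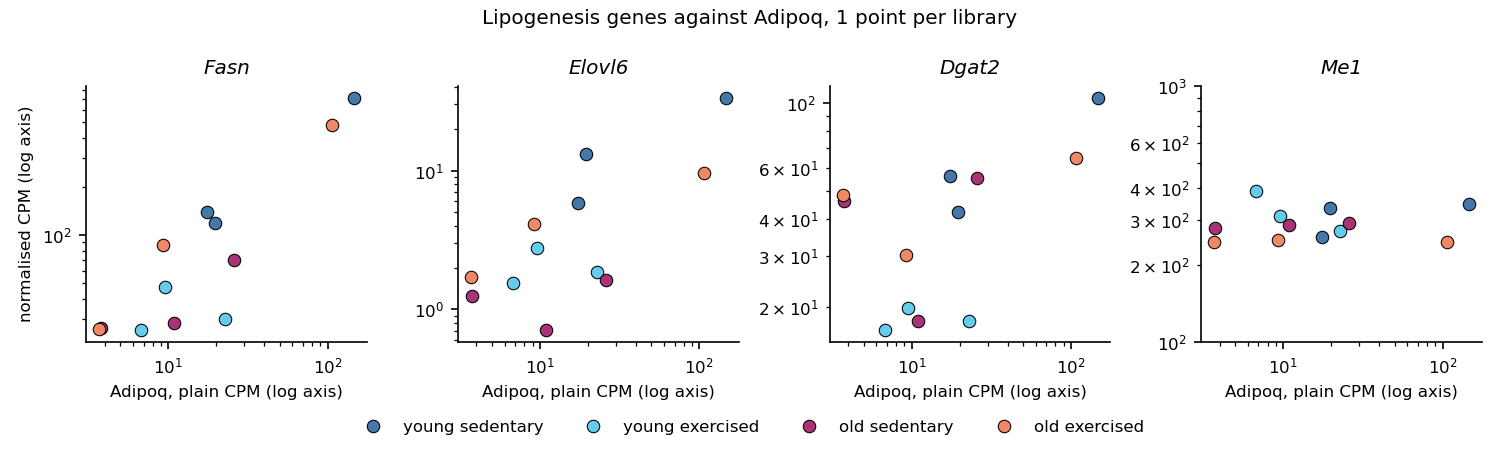
Normalised CPM of Fasn, Elovl6, Dgat2 and Me1 (vertical, log axis) against Adipoq in CPM of the plain library total (horizontal, log axis), 1 point per library, coloured by group. The young sedentary library at 147 CPM of Adipoq and the old exercised library at 107 hold the highest Fasn, whereas Me1 stays within 1.58-fold over all libraries.

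Exercise in young muscle was compared first. Levels of 7 of the 10 genes were lower in every young exercised library than in every young sedentary library: Elovl6, Dgat2, Fasn, Acaca, Scd1, Acly and Thrsp. Such a separation was found for 8.72% of all genes. None of these differences passed edgeR's adjusted threshold of 0.05, so they are given as values. The median log2 fold change was -2.0 over the 10 genes and -0.009 over all genes tested, and 9 of the 10 were negative.

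Elovl6, the elongase that makes stearate, stood at 33.5, 13.2 and 5.84 CPM in young sedentary libraries 1, 2 and 3. In young exercised libraries 7, 8 and 10 it stood at 1.55, 1.87 and 2.75 CPM. The groups did not overlap, and the sedentary libraries differed more among themselves than the exercised ones. The log2 fold change was -3.09 ± 0.751 (SE; edgeR adjusted p = 0.214).

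Fasn was at 713, 119 and 138 CPM in young sedentary libraries 1, 2 and 3 and at 25.6, 30.0 and 47.6 in young exercised libraries. Library 1 held several times as much as the other sedentary libraries, yet these too lay above all exercised ones. The log2 fold change of Fasn was -3.23 ± 1.16 (adjusted p in edgeR 0.309). Without young sedentary library 1 it was -1.90 (edgeR adjusted p = 0.597). Scd1, the stearoyl-CoA desaturase, ran from 150 to 690 CPM in sedentary and from 51.2 to 78.7 in exercised muscle (log2 fold change -2.35 ± 0.959, edgeR adjusted p = 0.358). Acaca ran from 29.8 to 144 CPM in sedentary and from 16.3 to 18.8 in exercised muscle, and its log2 fold change was -2.03 ± 0.664 (edgeR adjusted p = 0.284). Acly, at 153, 42.4 and 43.9 CPM in sedentary against 15.5, 17.3 and 23 in exercised libraries, had -2.10 ± 0.581 (edgeR adjusted p = 0.246). Thrsp had 30.0 to 125 CPM against 14.9 to 19.0, a log2 fold change in edgeR of -1.98 ± 0.669 (adjusted p = 0.291). These values too were closer to 0 without young sedentary library 1, at -1.25 for Scd1, -1.21 for Acly, -1.1 for Thrsp and -1.07 for Acaca, and that of Elovl6 was then -2.20.

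Of the acyltransferases that complete triglycerides, Dgat2 separated the groups and Dgat1 did not. Levels of Dgat2 were 104, 42.2 and 56.2 CPM in young sedentary and 16.7, 17.9 and 19.9 in young exercised libraries. The difference on the log2 scale was -1.89 ± 0.475 (edgeR adjusted p = 0.224), and without young sedentary library 1 it was -1.44 (0.348). Dgat1 stood at 29.3, 10.5 and 12.0 against 9.49, 11.0 and 10.2 CPM, so only library 1 lay apart. Its log2 fold change was -0.75 ± 0.42 with all libraries (edgeR adjusted p = 0.48) and -0.14 without library 1 (0.925). Srebf1, at 45.2 to 74.4 against 38.0 to 56.2 CPM, had -0.39 ± 0.251 (edgeR adjusted p = 0.549). Me1, at 257 to 346 against 271 to 387 CPM, had 0.05 ± 0.13 (edgeR adjusted p = 0.903), and the groups of both genes overlapped.

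For exercise in young muscle edgeR called 0 of the 10 genes, against 0.0131% of all genes. At an unadjusted p under 0.05 there were 7 (13.0% of all genes). DESeq2 called 3, Elovl6, Dgat2 and Acly (1.41% of all genes), and limma voom called 0 (0.0392%). The summed adipocyte list was lower in each exercised than in each sedentary library (189 to 412 against 414 to 2550 CPM). The nearest libraries almost tied, at 412 and 414 CPM. Taken singly, Adipoq, Plin1, Cidec and Cfd each overlapped between young exercised and young sedentary libraries. Adipoq had a log2 fold change in edgeR of -2.11 ± 1.38 (adjusted p = 0.567), which did not pass. With Adipoq as a covariate the log2 fold change was -2.05 for Elovl6, -1.54 for Dgat2, -1.43 for Fasn, -1.25 for Acly, -1.04 for Acaca, -0.99 for Thrsp and -0.88 for Scd1, and 0 genes of the set passed. Divided by the Adipoq counts of the same library, Fasn was 5.16 to 8.32 in young sedentary and 1.30 to 4.83 in young exercised libraries, which do not overlap. The same ratio overlapped for each other gene of the set. It was 0.242 to 0.701 against 0.0812 to 0.279 for Elovl6 and 0.754 to 3.38 against 0.779 to 2.27 for Dgat2. These ratios were not tested, and the share of all genes that separate by such a ratio was not computed.

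**Figure D3:**
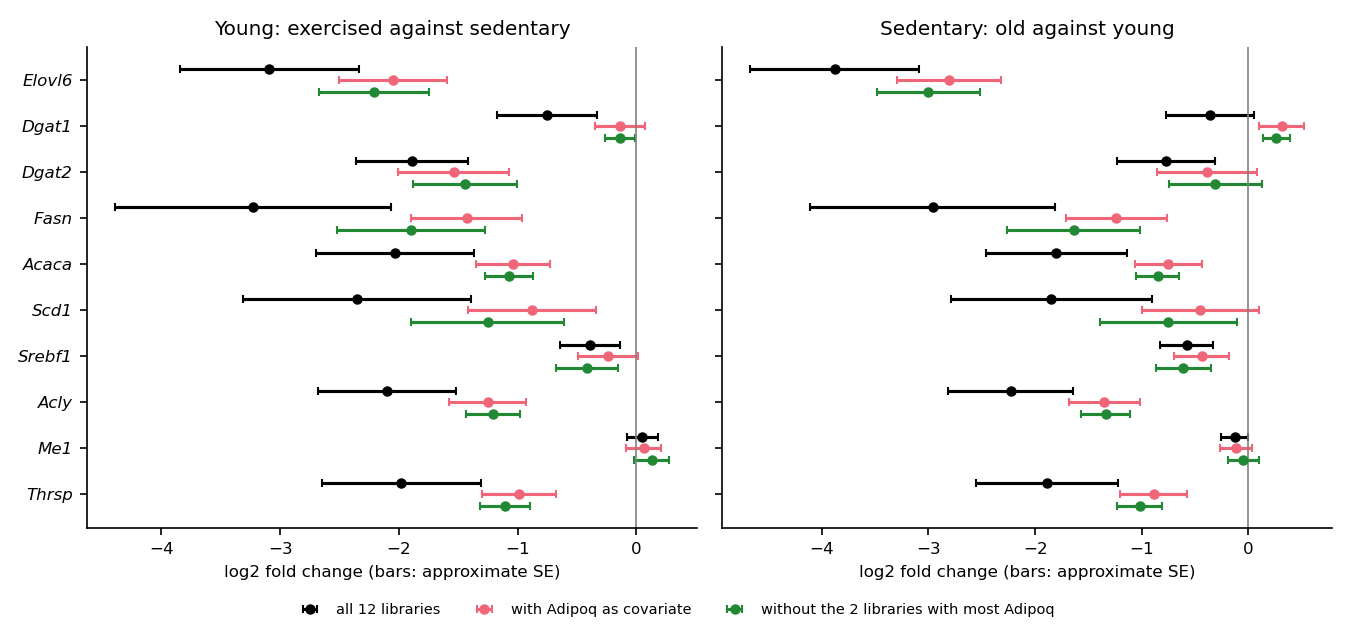
Log2 fold changes of the 10 genes with approximate SE as bars, for exercise in young mice (left) and for age in sedentary mice (right). Black points use all 12 libraries, pink points add Adipoq as a covariate, and green points leave out young sedentary library 1 and old exercised library 6; Elovl6 moves from -3.09 to -2.05 on the left and from -3.88 to -2.81 on the right with the covariate.

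Exercise in old muscle gave values of the other sign for most genes and 0 calls. Elovl6 stood at 0.707, 1.24 and 1.63 CPM in old sedentary libraries 4, 5 and 6 and at 4.14, 1.71 and 9.54 in old exercised libraries of the same numbers. Each exercised library lay above each sedentary one, which was so for 8.16% of all genes in this direction, but old exercised library 5 exceeded the highest sedentary library by little. The log2 fold change was 2.11 ± 0.778 (edgeR adjusted p = 0.472), and without old exercised library 6 it was 1.30 (0.811). Fasn stood at 28.2, 26.4 and 69.9 CPM in old sedentary and at 86.4, 26.0 and 485 in old exercised libraries. These groups overlapped, and the log2 fold change of 2.26 ± 1.12 (edgeR adjusted p = 0.629) was 0.44 without old exercised library 6 (0.967). Scd1 behaved likewise, with 66.5 to 141 CPM in sedentary and 39.8 to 611 in exercised libraries and a log2 fold change in edgeR of 1.61 ± 0.935 (adjusted p = 0.693), or 0.38 without library 6 (0.967).

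Dgat1 (0.30), Dgat2 (0.27), Acly (0.81), Acaca (1.04) and Thrsp (1.2) had edgeR adjusted p-values from 0.67 to 0.914 for exercise in old muscle. Without old exercised library 6 the log2 fold change was -0.23 for Dgat1, -0.01 for Dgat2, 0.19 for Acaca and 0.26 for Thrsp. Srebf1 had -0.37 ± 0.253 (edgeR adjusted p = 0.731). Me1 stood at 286, 278 and 292 CPM in old sedentary and at 250, 246 and 245 in old exercised libraries. It was lower in every exercised library, as were 7.36% of all genes, with a log2 fold change in edgeR of -0.21 ± 0.13 (adjusted p = 0.708). Over the 10 genes the median was 0.93 (0.008 over all genes), with 8 of 10 positive. EdgeR called 0 of the 10 genes (0.582% of all genes), with 1 at an unadjusted p under 0.05 (8.59% of all genes), and DESeq2 and limma voom called 0 each (1.02% and 0.647% of all genes).

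The difference between the exercise responses, old minus young, was positive for 9 of the 10 genes, with a median of 2.99 on the log2 scale (0.022 over all genes). Elovl6 had the smallest p, with a difference of 5.2 ± 1.08 (edgeR adjusted p = 0.101). Fasn (5.50 ± 1.61), Scd1 (3.97 ± 1.34), Thrsp (3.18 ± 0.936), Acaca (3.07 ± 0.926) and Acly (2.92 ± 0.81) had edgeR adjusted p-values of 0.173 to 0.227. Dgat2 had 2.16 ± 0.656 (edgeR adjusted p = 0.197), Dgat1 1.05 ± 0.59 (0.423), Srebf1 0.02 ± 0.356 (0.988) and Me1 -0.26 ± 0.184 (0.534). EdgeR called 0 of the 10 genes (0.0523% of all genes), although 7 had an unadjusted p under 0.05 (15.4% of all genes). Limma voom called 0 as well (0.0196% of all genes), whereas DESeq2 called 5, Acaca, Acly, Elovl6, Fasn and Thrsp (2.42% of all genes). Without both libraries of high Adipoq, which sit in the young sedentary and the old exercised group, the difference was 3.50 for Elovl6 (edgeR adjusted p = 0.146) and 2.34 for Fasn (0.36). It was then 1.63 for Scd1, 1.45 for Acly, 1.42 for Dgat2, 1.36 for Thrsp, 1.26 for Acaca and -0.10 for Dgat1. Adipoq itself had a difference of 3.62 ± 1.94 (edgeR adjusted p = 0.413).

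**Figure D4:**
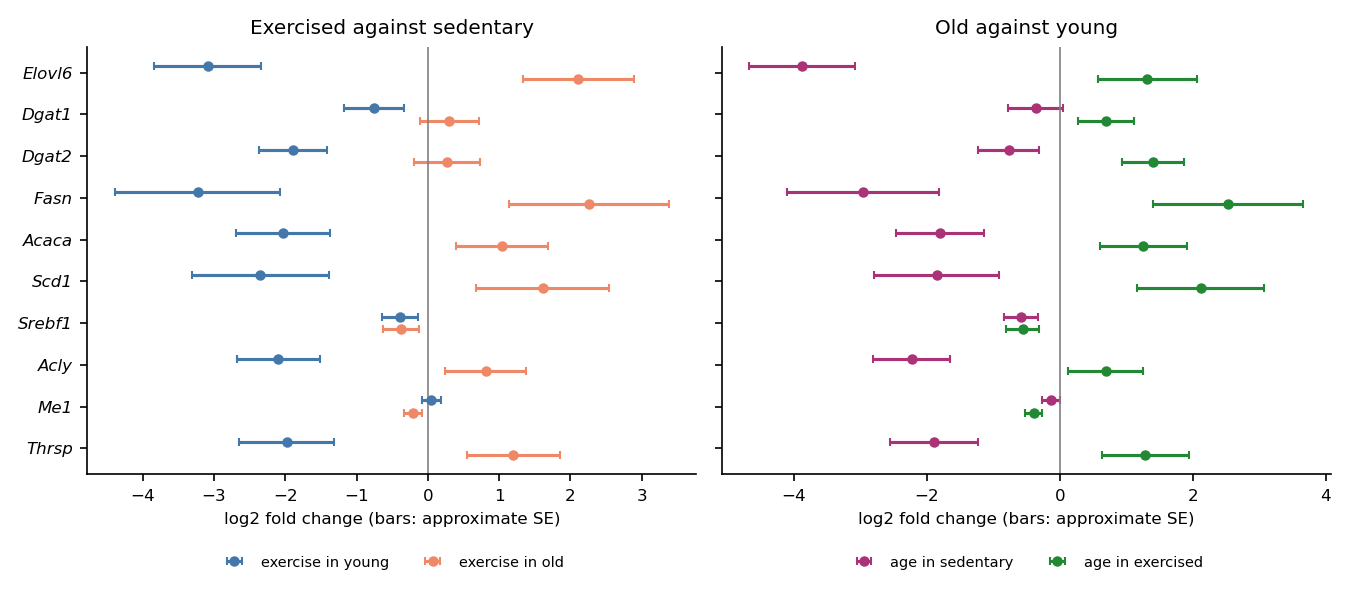
Log2 fold changes of the 10 genes with approximate SE as bars. Left, exercised against sedentary in young (blue) and in old mice (orange); right, old against young in sedentary (purple) and in exercised mice (green). Elovl6 lies at -3.09 and 2.11 on the left, and at -3.88 and 1.32 on the right, while Me1 lies between -0.39 and 0.05 in all 4.

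Among sedentary mice, Elovl6 and Acly were lower in old than in young muscle. This comparison uses the same young sedentary libraries as exercise in young muscle, so the 2 sets of values are not independent. From the levels given above, Elovl6 averaged 17.5 ± 14.3 CPM in young and 1.19 ± 0.461 in old sedentary muscle (SD, n = 3 each), and every old library lay below every young one. It fell by 3.88 ± 0.792 on the log2 scale (14.7-fold lower; edgeR adjusted p = 0.0189). Acly, which supplies acetyl-CoA to the pathway, stood at 13.4, 16.1 and 21.6 CPM in old sedentary libraries against 42.4 to 153 in young ones. It fell by 2.23 ± 0.584 on the log2 scale (4.70-fold lower; edgeR adjusted p = 0.0446), with no overlap between the groups.

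The other enzymes of fatty acid synthesis had values of the same sign that did not pass. Fasn had a log2 fold change in edgeR of -2.96 ± 1.15 (adjusted p = 0.137) and Acaca of -1.80 ± 0.657 (0.117), with old levels of 26.4 to 69.9 and 18.9 to 25.2 CPM. Scd1, at 66.5 to 141 CPM in old sedentary muscle, had -1.85 ± 0.941 (edgeR adjusted p = 0.245). Thrsp had -1.89 ± 0.666 (edgeR adjusted p = 0.107) with 14.7 to 23.4 CPM in old sedentary libraries. These 4 genes, with Elovl6 and Acly, were lower in every old than in every young sedentary library, 6 of 10 against 16.6% of all genes. Dgat2 stood at 17.9, 46.3 and 55.1 CPM in old sedentary libraries, 2 of them within the young range, and had -0.77 ± 0.458 (edgeR adjusted p = 0.316). Dgat1, at 13.0 to 14.3 CPM, lay above 2 of the 3 young libraries and had -0.36 ± 0.415 (edgeR adjusted p = 0.625). Without young sedentary library 1 the log2 fold change was -1.64 for Fasn, -1.34 for Acly, -1.02 for Thrsp, -0.85 for Acaca, -0.75 for Scd1, -0.31 for Dgat2 and 0.26 for Dgat1, with edgeR adjusted p-values from 0.0997 (Acly) to 0.753 (Dgat2). Srebf1 (-0.58 ± 0.252, edgeR adjusted p = 0.167) and Me1 (-0.13 ± 0.13, edgeR adjusted p = 0.562) overlapped between the ages.

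EdgeR thus called 2 of the 10 genes for age in sedentary muscle, both lower, against 10% of all genes. All 10 log2 fold changes were negative, with a median of -1.82 against -0.025 over all genes. At an unadjusted p under 0.05 there were 6 genes (27.4% of all genes), while DESeq2 called 5 (13.6%) and limma voom 1, Acly (9.12%). The count in edgeR was 0 without old sedentary library 4 or 5, where Elovl6 had -3.61 (adjusted p = 0.0912) and -3.91 (0.078). Calls over all genes fell as well, from 683 higher and 855 lower in the main fit. They were 151 and 164 without old sedentary library 4, and 187 and 224 without library 5. The count for the 10 genes was 1, Elovl6, without young sedentary library 1 or without old sedentary library 6. It was also 1, Elovl6, without any 1 of the young exercised libraries or without old exercised library 4. Adipoq had a log2 fold change of -2.08 ± 1.38 here (edgeR adjusted p = 0.371), with 16.6 to 138 normalised CPM in young and 3.83 to 26.0 in old sedentary muscle. With Adipoq as a covariate Elovl6 had -2.81 (edgeR adjusted p = 0.0163) and Acly -1.35 (0.0488). Without both libraries of high Adipoq 4 genes passed edgeR, Elovl6 at -3.0 (adjusted p = 0.0141), Acly at -1.34 (0.0171), Thrsp at -1.02 (0.0276) and Acaca at -0.85 (0.0415). Of all genes tested, 294 were higher and 545 lower in that fit. Leaving out young sedentary library 2, where skin markers were high, Elovl6 had -4.06 (edgeR adjusted p = 0.0275) and Acly -2.54 (0.0379). With a term for sex Elovl6 had -3.71 (edgeR adjusted p = 0.056) and Acly -1.93 (0.163), and Srebf1 alone passed (-0.89, 0.031).

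Among exercised mice the signs were mostly the other way. Dgat2 was higher in each old exercised library (30.1, 48.5 and 64.7 CPM) than in each young exercised library, with a log2 fold change in edgeR of 1.40 ± 0.47 (adjusted p = 0.0992). Without old exercised library 6 it was 1.11 (edgeR adjusted p = 0.263). Acaca (20.5 to 81.4 CPM, log2 fold change 1.26 ± 0.653, edgeR adjusted p = 0.276) and Thrsp (20.7 to 79.5 CPM, 1.29 ± 0.659, adjusted p = 0.272) were also above the young range in every old exercised library, as were 14.6% of all genes. Me1 averaged 247 ± 2.86 CPM in old and 323 ± 58.9 in young exercised muscle (SD, n = 3 each). It was lower in every old library, as were 15.1% of all genes, and had -0.39 ± 0.13 (edgeR adjusted p = 0.0856). Fasn had 2.53 ± 1.13 (edgeR adjusted p = 0.209), Scd1 2.12 ± 0.951 (0.211), Elovl6 1.32 ± 0.74 (0.312), Acly 0.69 ± 0.567 (0.517) and Dgat1 0.69 ± 0.42 (0.354), and all 5 overlapped between the ages. Without old exercised library 6 the value was 0.71 for Fasn, 0.89 for Scd1 and 0.50 for Elovl6. Srebf1 had -0.56 ± 0.253 (edgeR adjusted p = 0.201).

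For age in exercised muscle edgeR called 0 of the 10 genes (9.87% of all genes), with 3 at an unadjusted p under 0.05 (24.7% of all genes). DESeq2 called 1, Dgat2 (11.5% of all genes), and limma voom 0 (9.54%). The median over the 10 genes was 1.28, against 0.004 over all genes. Adipoq had 1.54 ± 1.37 in this comparison (edgeR adjusted p = 0.553).

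Genes around the 10 were grouped into 7 lists by function, with 111 tested genes. For exercise in young mice edgeR called 0 of the 111, with 43 at an unadjusted p under 0.05 (13.0% of all genes), 10 called by DESeq2 (1.41% of all genes) and 0 by limma voom. The smallest p-values belonged to Srebf2, the sterol-responsive relative of Srebf1, at 23.6 ± 3.34 CPM in sedentary and 14.4 ± 0.0558 in exercised muscle (SD, n = 3 each; log2 fold change -0.72, edgeR adjusted p = 0.0631), and to Sqle of cholesterol synthesis (-1.64, 0.0906). Lpin1, the phosphatidate phosphatase before the Dgat step, had the other sign (0.60, edgeR adjusted p = 0.154). For exercise in old mice edgeR called 0 of the 111, with 9 at an unadjusted p under 0.05 (8.59% of all genes) and 0 by DESeq2 and by limma voom. For the difference between the responses edgeR called 0, with 43 at an unadjusted p under 0.05 (15.4% of all genes), 13 by DESeq2 (2.42% of all genes) and 0 by limma voom.

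For age edgeR called 20 of the 111 among sedentary mice (10% of all genes) and 10 among exercised mice (9.87% of all genes). Among sedentary mice, the list of fatty acid synthesis, elongation and desaturation had 1 of 19 tested genes higher and 6 lower, with a median of -1.01. Lower were the elongases Elovl5, which extends polyunsaturated fatty acids (18.5 ± 4.46 to 9.09 ± 1.98 CPM, SD, n = 3 each; log2 fold change -1.03, edgeR adjusted p = 0.0108), and Elovl1, which makes very long chains (-1.21, 0.0123). The dehydratase Hacd1 of the elongation cycle fell by 1.01 (edgeR adjusted p = 0.00843), the desaturases Scd2, Fads2 and Fads3 were lower as well, and Tecr was higher. Without old sedentary library 4 the list had 1 gene lower, and without old sedentary library 5 it had 2. Over all genes, 164 and 224 were lower in these fits, against 855 in the main fit. Among glycerolipid synthesis genes 4 of 18 were lower and 1 higher, including the acyl-CoA synthetases Acsl5 (-1.05, edgeR adjusted p = 0.00889) and Acsl6 (0.92, edgeR adjusted p = 0.0116). The number lower was 1 or 2 without any 1 of the sedentary libraries of either age or without young exercised library 8 or 10. Over all genes, 164 to 942 were lower in those fits, against 855 in the main fit. The glycerolipid list had 2 lower with Adipoq as a covariate and 2 with a term for sex (523 and 612 of all genes). It had 1 lower without both libraries of high Adipoq and 1 with only the 2 groups compared (545 and 455 of all genes).

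Cholesterol synthesis shares its SREBP regulators with lipogenesis, and 5 of its 18 tested genes were lower in old sedentary muscle and 0 higher. Over all genes edgeR called 10% in this comparison, in either direction. Among them were Stard4, a sterol carrier (-1.13, edgeR adjusted p = 0.0123), Cyp51 (-0.91, 0.0263), Hmgcs1 (-0.51, 0.0278) and Sqle. All 18 values were negative, with a median of -0.45. With Adipoq as a covariate 1 of the 18 passed, and 4 did without both libraries of high Adipoq. The count was 0 without old sedentary library 4 or 5, 2 without young sedentary library 2 and 3 without old sedentary library 6. Over all genes, edgeR called 683 higher and 855 lower in the main fit. Without old sedentary library 4 there were 151 and 164, and without old sedentary library 5 there were 187 and 224. Without young sedentary library 2 there were 688 and 942, and without old sedentary library 6 there were 485 and 571. Of 17 regulators, Srebf2 was lower in old sedentary muscle (15.7 ± 1.76 CPM, SD, n = 3; log2 fold change -0.59, edgeR adjusted p = 0.0112). Insig2, which retains SREBPs in the endoplasmic reticulum, was higher (0.29, edgeR adjusted p = 0.0333), as was the SREBP-cleaving protease Mbtps2 (0.34, 0.0309). Without old sedentary library 4 or 5, 0 regulators passed, in fits with the fewer calls over all genes just given. With the plain library total, no filter, only the 2 groups compared, a term for sex, without young sedentary library 1 or without old sedentary library 6, 0 were higher. In edgeR 0 of 12 substrate supply genes, 0 of 17 lipid droplet and lipolysis genes and 0 of 10 fatty acid uptake genes passed for age in sedentary muscle. At an unadjusted p under 0.05 there were 2, 3 and 2 (27.4% of all genes). DESeq2 called 1, 2 and 1 (13.6% of all genes), and limma voom 0, 1 and 0 (9.12%). The smallest p-values there belonged to G6pdx, of the pentose phosphate pathway (-1.73, edgeR adjusted p = 0.0622), Mgll (-1.06, 0.0554) and Slc27a4 (-0.45, 0.0652).

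In old against young exercised muscle, Acss2, which makes acetyl-CoA from acetate, was higher at 49.6 ± 8.55 against 24.7 ± 1.03 CPM (SD, n = 3 each; log2 fold change 1.01, edgeR adjusted p = 0.0122), the 1 called of 12 substrate supply genes against 9.87% of all genes. Without young exercised library 8 that list had 0 calls. Hacd1 was lower there too (-1.29, edgeR adjusted p = 0.00229), the 1 gene of its list of 19. The glycerol-3-phosphate dehydrogenase Gpd1 (-0.50, edgeR adjusted p = 0.0257) and Agpat5 (-0.45, 0.0174) were lower and Agpat3 (0.43, 0.0158) and Acsl6 higher. Mbtps1 (-0.36, edgeR adjusted p = 0.0143), Mlxip (-0.35, 0.0491) and Rxra (-0.38, 0.0492) were lower among the regulators, the last 2 close to the threshold. Fitm1 (-0.26, edgeR adjusted p = 0.0301), which aids lipid droplet formation, was the 1 of 17 lipid droplet genes. That list had 0 genes lower without any 1 of the young exercised libraries, without old sedentary library 5, without old exercised library 4 or 6, without both libraries of high Adipoq, with the plain library total, with no filter or with only the 2 groups compared. Of fatty acid uptake and of cholesterol synthesis edgeR called 0 genes, with 3 and 7 at an unadjusted p under 0.05 (24.7% of all genes). DESeq2 called 1 of each (11.5% of all genes) and limma voom 0 (9.54%). The glycerolipid list had 0 or 1 calls without old exercised library 5 or without any 1 of the young exercised libraries. The regulators had 0 or 1 without any 1 of the young exercised, old sedentary or old exercised libraries. Over all genes, leaving out any 1 of these libraries gave 270 to 686 higher and 345 to 697 lower, against 704 and 807 in the main fit. With RLE scaling, the plain library total or limma voom, 1 regulator was lower, and 3 were with a term for sex. Without both libraries of high Adipoq 0 were lower.

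For the slope on Adipoq edgeR called 14 of the 111 genes (0.974% of all genes), in 6 of the 7 lists. Passing were 4 of 17 lipid droplet and lipolysis genes (Plin1, Cidec, Bscl2 and Lipe), 3 of 12 substrate supply genes and 3 of 19 genes of fatty acid synthesis and elongation. Slc25a1, the mitochondrial citrate carrier that feeds Acly, had a slope of 0.64 (edgeR adjusted p = 0.000129), and the elongation enzymes Hacd2 and Hsd17b12 had 0.54 (0.00185) and 0.34 (0.00283). The fat-cell transcription factors Cebpa (0.63, edgeR adjusted p = 9.91e-06) and Pparg (0.51, 0.000279) were 2 of 17 regulators. Agpat2 (0.52, edgeR adjusted p = 0.00359) was the 1 of 18 glycerolipid genes, and Fabp4 (0.54, 0.00274) the 1 of 10 uptake genes. Plin1, Cidec and Fabp4 are themselves on the adipocyte list. EdgeR, DESeq2 and limma voom called 0 of 18 cholesterol synthesis genes on this slope, with 2 at an unadjusted p under 0.05 in edgeR (8.58% of all genes). Their median was -0.01 against 0.40 for the lipogenesis genes. Without both libraries of high Adipoq 2 genes passed, both of the lipid droplet list, and without old exercised library 6 the fatty acid synthesis, glycerolipid and uptake lists had 0 calls. Over all genes, 8 and 53 were called higher in these fits, against 149 in the main fit. The substrate supply list had 1 call without young sedentary library 1 or without any 1 of the old exercised libraries. Whether these lists differ from each other was not tested.

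**Figure D5:**
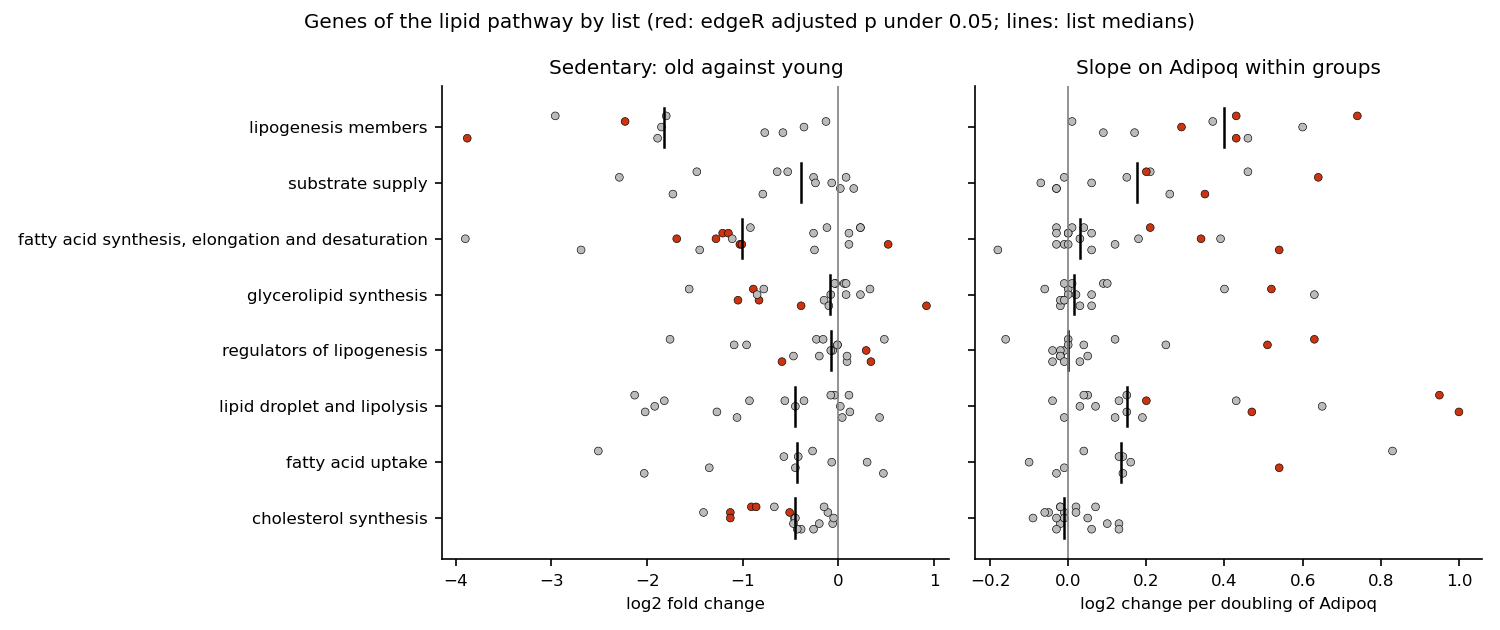
Each point is 1 gene of a list, placed by its log2 fold change in old against young sedentary muscle (left) or by its log2 change per doubling of Adipoq within groups (right), with list medians as lines. Red points have an edgeR adjusted p under 0.05; the medians of the lipogenesis genes are -1.82 and 0.40 and those of cholesterol synthesis -0.45 and -0.01.

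The genes whose levels followed the members most closely were found by Pearson's r of log2 normalised CPM over the 12 libraries, which share groups and fat-cell content, so r is a description. Closest to Fasn were Slc25a1 (r = 0.978), Scd1 (0.971) and Aldh1a7 (0.968). Scd1 was closest to Fasn, Aldh1a7 (0.961) and Rbp4 (0.956), the retinol carrier on the adipocyte list. Elovl6 was closest to Acly (0.956), and Aspg (0.946) was also among its nearest genes. Dgat1 went with Fam213a (0.97), Aldh1l1 (0.957) and Gstz1 (0.949). Dgat2 had lower values, with Acss2 at 0.92, the lipoprotein lipase Lpl at 0.891 and Acsf2 at 0.889.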

How the data were processed

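RNA of the quadriceps femoris was measured in 12 libraries of 4 groups by age and treatment, per the labels. Whole-number counts for each gene were deposited by the authors, and the file headers name featureCounts. The build GRCm38, STAR 2.5.2b, Subread 1.5.2, Trimmomatic 0.36, bcl2fastq 2.20.0.422 and DESeq2 are listed, per the submitters' processing notes. Not given in the sources used here are the annotation release and the strand setting.

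Counts were tested with edgeR 4.0.16 (R 4.3.3). The filter filterByExpr (minimum count 10, minimum total 15) kept 15304 of 49315 genes, and TMM scaling factors were 0.921 to 1.06. All 12 libraries entered a robust quasi-likelihood fit with 4 group coefficients (residual degrees of freedom 8, common biological coefficient of variation 0.207). For the slope on Adipoq, log2 of its plain CPM plus 0.5 was added to that fit. Benjamini-Hochberg adjustment ran over all genes tested, with a threshold of 0.05. SE are approximate: the size of the log2 fold change over the root of the F statistic. At total counts of 23.3 to 27.6 M, 1 CPM is 23 to 28 counts. Alternatives were other scalings, no filter, DESeq2 1.42.0, voom of limma 3.58.1, fewer libraries and added covariates. The scripts were tested on simulated counts.

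The 10 genes, the lists and the tests were chosen with earlier results of these data known. Named beside the 10 are, per list and comparison, up to 3 genes past the threshold, or the 2 smallest p-values where none passed, of which the text gives a part. The fat-cell genes Adipoq, Plin1, Cidec and Cfd and the 3 genes most like each of 5 members are named as well, except those not reported here. Genes of a list given by name only lie outside this rule, as do Xist, Ddx3y, Ucp1 and Rai1. Numbers 4, 5 and 6 occur in both old groups. The deviations of same-numbered libraries correlated at -0.10, 0.04 and 0.08, so the numbers were not taken as pairs.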

Additional observations from a re-analysis of the deposited data

Results flagged for a closer look

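For Elovl6 the exercise response of the groups ran in opposite directions, with every young exercised library below every young sedentary one and every old exercised library above every old sedentary one. Such separations held for 8.72% and 8.16% of all genes, and the share with both was not computed. The difference, old minus young, was 5.2 on the log2 scale, and it did not pass edgeR (adjusted p = 0.101). It was 3.50 without both libraries of high Adipoq and 3.61 with Adipoq as a covariate.

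Acaca and Thrsp had the same kind of separation by age. Each was lower in every old than in every young library among sedentary mice and higher among exercised mice. These separations held for 16.6% and 14.6% of all genes, and the share with both was not computed. Neither gene passed edgeR for age. The adjusted p-values were 0.117 (Acaca) and 0.107 (Thrsp) in sedentary and 0.276 and 0.272 in exercised mice. The age difference in exercised minus that in sedentary mice is the same contrast as the difference between the exercise responses above, not a further result. It was 3.07 for Acaca and 3.18 for Thrsp on the log2 scale, with edgeR adjusted p-values of 0.198 and 0.192. Without both libraries of high Adipoq it was 1.26 and 1.36, and with Adipoq as a covariate 1.54 and 1.66. The libraries with most Adipoq sit in the young sedentary and the old exercised group, and the summed adipocyte markers there reached 2550 and 1970 CPM.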

How the results depend on the processing

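Of 1240 values of single genes under alternative settings, 1141 kept their direction and their side of the threshold, 41 fell below it, 33 passed it and 25 changed sign. Only values that passed in the main fit could fall below it. These were 2 genes for age in sedentary mice and 4 for the slope on Adipoq. Most of the 1141 values had not passed in the main fit. EdgeR's count for age in sedentary mice (2) was 1 with no filter, 5 with DESeq2, 1 with limma voom, 0 with only the 2 groups compared in the fit, 1 with a sex term and 4 without both libraries of high Adipoq. The count for exercise in young mice (0) was 3 with DESeq2, and that for the difference between the responses (0) was 5. For age in exercised mice (0) it was 1 with DESeq2, 1 with only the 2 groups compared and 2 with a sex term (Me1 and Srebf1). For the slope on Adipoq (4) it was 1 with no filter, 7 with DESeq2, 7 with limma voom and 0 without both libraries of high Adipoq. Leaving out 1 library at a time gave 0 to 3 calls for age in sedentary mice, 0 to 1 for age in exercised mice, 0 to 6 for the slope and 0 for the other comparisons. The 1 call for age in exercised mice was Me1 without young sedentary library 3 and Dgat2 without old sedentary library 4. Calls over all genes varied as well when 1 library was left out. For age in sedentary mice there were 151 to 756 higher and 164 to 963 lower. For age in exercised mice there were 270 to 847 higher and 345 to 928 lower, and for the slope 53 to 171 higher. Elovl6 passed for age in sedentary mice in 16 of 21 alternatives (adjusted p 1.56e-05 to 0.0912) and Acly in 10 of 21 (0.00245 to 0.163). For the slope, Dgat1 passed in 15 of 19 alternatives, and Fasn, Acaca and Thrsp in 12 of 19 each. The cause of these changes was not tested.

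Signs changed only for values that had not passed. For exercise in young mice Me1 was -0.09 with the plain library total, and -0.10 to 0.16 leaving out 1 library at a time. For exercise in old mice Dgat1 was -0.02 with Adipoq as a covariate, -0.23 without both libraries of high Adipoq and -0.23 to 0.53 leaving out 1 library at a time. Dgat2 was -0.01 without both libraries and -0.08 to 0.58 leaving out 1. For the difference between the responses Dgat1 was -0.10 without both libraries. Srebf1 was -0.00166 with no filter, -0.20 with Adipoq as a covariate, -0.19 without both libraries and -0.22 to 0.22 leaving out 1. For age in sedentary mice Dgat1 was 0.31 with Adipoq as a covariate, 0.26 without both libraries and -0.62 to 0.26 leaving out 1. The slope of Dgat2 was -0.01 and that of Me1 -0.05 without both libraries, and that of Me1 was -0.02 to 0.02 leaving out 1.

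With the replicate number as a replicate block in the 6 old libraries, edgeR called 0 of the 10 genes for exercise in old mice, as without it, and 0 of all genes. The same 6 libraries without the block gave 54 genes higher and 3 lower. The block takes up residual degrees of freedom in a fit of only 6 libraries. How much of the drop comes from that was not tested. The depth of 23.3 M counts or more left at least 19 counts behind each value of the 10 genes, and the values of Elovl6 rest on the fewest.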
